A study of Homo sapiens with 6 samples.

Results

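The genes described here are YAP1, WWTR1, TEAD1, TEAD4, LATS2, AJUBA, CCN1, CCN2, ANKRD1 and AMOTL2, that is the transcriptional coactivators YAP and TAZ (TAZ is encoded by WWTR1), TEAD factors through which they act, regulators of the pathway and well-known target genes. They were selected by symbol, and all 10 were found among the 30618 genes of the count table. The RNA-seq compared ARPE-19 cells that received a non-targeting siRNA (NC) with ARPE-19 cells that received an siRNA against EIF1 (siEIF1), with 3 libraries in each group. ARPE-19 is a human cell line derived from the retinal pigment epithelium, and both groups were kept in 50 mM glucose, so no library here shows these genes at normal glucose. A single siRNA sequence against EIF1 is stated in the methods, which call the replicates independent. Per the methods, all libraries were prepared side by side and sequenced together in a single run. The blot image in the supplement lists siEIF1 lanes in separate numbered series, and how these relate to the libraries is not stated. The time between transfection and harvest for sequencing is not given in the sources used here.

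YAP and TAZ do not bind DNA themselves. They enter the nucleus and join TEAD factors at promoters and enhancers, where they raise the transcription of genes for matrix proteins, cytoskeletal proteins and growth. The Hippo kinase cascade restrains them: MST kinases activate LATS kinases, which phosphorylate YAP and TAZ and keep them in the cytoplasm. Cells that are spread on a stiff surface tend to have YAP and TAZ in the nucleus, and crowded cells tend to have them in the cytoplasm, so much of the control is on the protein and is not visible in the mRNA of YAP1 or WWTR1. Some targets, such as LATS2 and AMOTL2, are themselves regulators of the pathway.

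The libraries held from 26499929 to 31431479 counts. Mean EIF1 FPKM (fragments scaled to transcript length and to the size of the library) was 286 ± 7.60 in NC and 23.5 ± 0.80 in siEIF1 libraries (SD, n = 3 each), so 8.22% of the control level was left. Of the 10 listed markers of the retinal pigment epithelium, 8 were found by symbol, and RPE65 and TTR were not. In the NC group, the keratins KRT18 and KRT8 had means of 326 and 113 FPKM, BEST1 of 66.0, OTX2 of 17.8 and MITF of 5.84. Genes that overlap the markers were not looked for, so reads of such genes within these values, BEST1 included, were not assessed. RLBP1 (0.237 FPKM) and PMEL (0.270 FPKM) were low. TYR, an enzyme of pigment synthesis, had a mean count of 0.667 over the 6 libraries. Of the markers of blood, endothelial and neural cells, 5 were found and summed to between 0.84 and 0.99 FPKM per library, nearly all of it from CD68. All 6 proliferation markers listed fell (adjusted p under 0.05 in edgeR's test on the counts), beside 10.4% of all genes tested. Their log2 fold changes ran from -1.66 for CDK1 to -0.28 for PCNA. The summed level of the markers, most of it from PCNA, was 87.1 to 90.7 FPKM in the NC and 63.2 to 66.4 FPKM in the siEIF1 libraries. Their part in the results that follow was not tested, and in bulk RNA fewer cells that express a gene and less of its RNA per cell cannot be told apart.

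The promoters are shown first, since TEAD factors recognise the short sequence GGAATG and the target genes differ in how often it stands before them. RefSeq promoter windows (GRCh38.p14, 250 bases before to 50 after a start site) were found for 7 of the 10 genes. CCN1, TEAD1 and TEAD4 had none. GGAATG was searched on both strands, where it reads CATTCC on the other strand. It was present in 14.0% of all 35116 windows, and 1.37% of all windows held it at least 2 times and 0.128% at least 3 times. The CCN2 window held it 3 times, beginning 169, 104 and 95 bases before the start site, and the ANKRD1 window held it 2 times, 220 and 128 bases before the start site. The 250 bases before the start site are given for these genes, 5′ to 3′ on the gene's own strand, with the matches in capitals. The CCN2 sequence is chr6:131951373-131951622 and the ANKRD1 sequence is chr10:90921088-90921337, both on the reverse strand.
CCN2: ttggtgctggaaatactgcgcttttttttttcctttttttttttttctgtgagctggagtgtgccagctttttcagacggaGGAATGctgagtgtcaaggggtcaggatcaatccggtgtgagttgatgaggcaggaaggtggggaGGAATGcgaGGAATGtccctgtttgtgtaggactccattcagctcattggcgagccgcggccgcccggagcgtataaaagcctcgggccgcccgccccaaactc
ANKRD1: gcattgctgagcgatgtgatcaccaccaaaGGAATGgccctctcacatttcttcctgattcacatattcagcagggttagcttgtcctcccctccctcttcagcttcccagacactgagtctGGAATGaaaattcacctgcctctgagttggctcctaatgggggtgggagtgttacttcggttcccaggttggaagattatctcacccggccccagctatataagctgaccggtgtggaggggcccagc

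Single matches stood in windows of LATS2, YAP1, AJUBA and AMOTL2, and 30 bases around each are shown for comparison of their flanks. The LATS2 match begins 9 bases after the start site, and that of YAP1 162 bases before it. Those of AJUBA and AMOTL2 lie 59 and 69 bases before the second start site that RefSeq lists for the gene, and that of AMOTL2 is on the opposite strand. The stretches are chr13:21061560-21061589 (reverse strand), chr11:102110273-102110302 (forward strand), chr14:22976884-22976913 (reverse strand) and chr3:134374499-134374528 (reverse strand).
LATS2: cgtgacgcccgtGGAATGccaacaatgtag
YAP1: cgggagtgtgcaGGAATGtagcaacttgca
AJUBA: gggaagttggctGGAATGaagccaaagcaa
AMOTL2: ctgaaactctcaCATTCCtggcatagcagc

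Neither of the 2 WWTR1 windows held a match. AP-1 is a factor that often sits near TEAD at enhancers. It was searched with the pattern TGANTCA, where N is any base, which is looser than the usual AP-1 site (C or G at N). The pattern was found in the ANKRD1 window as TGATTCA, 195 bases before the start site, and in 7.71% of all windows. The CArG box, the site of serum response factor, was found in 0 of the 10 windows of these genes and in 1.29% of all windows. Of the 12 genes of a published YAP/TAZ target signature (described below) that had a window, 5 had a TEAD core in it. By window, a TEAD core was held by 5 of the 13 windows of these signature genes and by 6 of the 10 windows of the members, beside 14.0% of all windows. A match is a string of letters and does not show binding.

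In siEIF1 cells, the mean FPKM of YAP1, WWTR1 and TEAD1 was 102%, 99.9% and 97.0% of the NC mean, and none of these passed the test, while ANKRD1 fell to 74.9% and LATS2 rose to 119% of its NC mean in FPKM. These are the 2 of the 10 genes with an adjusted p under 0.05 in edgeR's quasi-likelihood test on the counts. Among all 16749 genes tested, 20.6% had an adjusted p under 0.05, so the share of 2 in 10 lies near the background. By direction, 1 of the 10 was higher (10.2% of all genes) and 1 was lower (10.4% of all genes). When a fold change of more than 2 or less than 0.5 was also asked for, 0 of the 10 were left in edgeR, beside 1.71% of all genes, and 0 were left in DESeq2, where 228 of the 16749 genes passed. At an unadjusted p under 0.05 in edgeR there were 4 of the 10, namely LATS2, ANKRD1, TEAD4 and CCN2, beside 32.6% of all genes. The median log2 fold change of the 10 genes was 0.0040, beside 0.0033 over all genes tested.

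**Figure D1:**
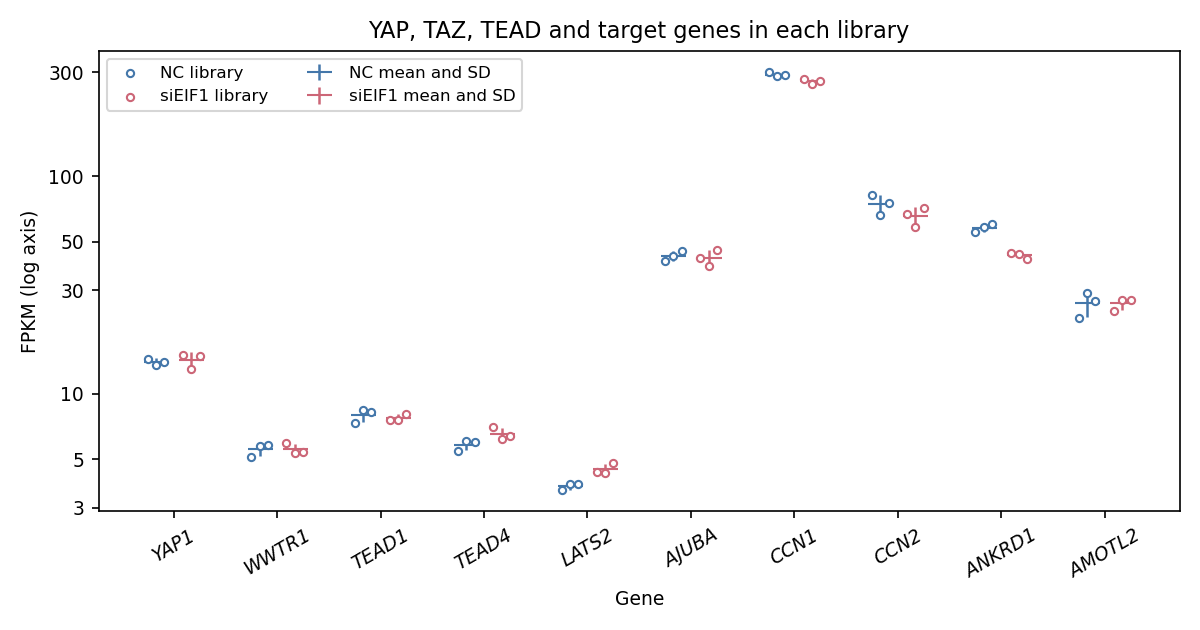
FPKM of the 10 genes in each library, on a log axis, with NC libraries in blue and siEIF1 libraries in red (points), and the group mean and SD (bars). ANKRD1 is lower in all 3 siEIF1 libraries and LATS2 is higher, while the points of YAP1, WWTR1 and AJUBA lie among each other.

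Per length, the secreted targets CCN1 and CCN2 were the most abundant of these mRNAs in the NC group and LATS2, a kinase and also a target, the least. The NC means ran from CCN1 at 293 FPKM over CCN2 (74.5), ANKRD1 (58.0), AJUBA (43.1), AMOTL2 (26.0), YAP1 (14.0), TEAD1 (8.01), TEAD4 (5.85) and WWTR1 (5.56) to LATS2 at 3.77 FPKM. Each gene's NC libraries lay above those of the next gene in this order, except that TEAD4 and WWTR1 overlapped. This order rests on the transcript lengths used for the FPKM, which are not given in the sources used here, and other lengths could change it. CCN1 stood at the 99.7th percentile of the 30275 genes with an FPKM value and LATS2 at the 77.7th. The order was the same in the siEIF1 group, where the means of ANKRD1 (43.4 FPKM) and AJUBA (42.2 FPKM) had come to lie close together and their libraries overlapped.

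YAP1 encodes YAP, a coactivator whose WW domains bind partner proteins, and lies on chromosome 11 from 102110447 to 102233424 (GRCh38, forward strand, 9 exons in the canonical transcript). Its FPKM was 14.54, 13.51 and 14.09 in NC replicates 1 to 3 and 15.14, 13 and 15.01 in siEIF1 replicates 1 to 3. The groups overlapped, with siEIF1 replicate 2 the lowest of the 6 libraries. The log2 fold change on the counts was 0.054 (95% interval -0.066 to 0.17, edgeR adjusted p = 0.553), which puts the fold change between 0.955 and 1.13. YAP1 had a mean of 3185 counts per library.

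WWTR1 encodes TAZ, the paralogue of YAP, and lies on chromosome 3 from 149517235 to 149736714 (reverse strand, 7 exons). Its FPKM was 5.12, 5.75 and 5.81 in the NC and 5.92, 5.34 and 5.41 in the siEIF1 libraries. Both the lowest and the highest value belonged to a replicate 1, the lowest to NC and the highest to siEIF1, and the other libraries lay between them. The log2 fold change was 0.019 (95% interval -0.12 to 0.15, edgeR adjusted p = 0.873). Its sign turned when NC replicate 1 (-0.036) or siEIF1 replicate 1 (-0.029) was left out, and also with limma on log2(FPKM + 1) (-0.00016).

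FPKM is scaled to length, so the coactivators can be set against each other only as far as the lengths used hold. These lengths are not given in the sources used here, and the canonical transcripts are 5401 bases for YAP1 and 5037 for WWTR1. Other lengths would change the shares and ratios. YAP1 made up 71.6% ± 2.04 of the summed FPKM of both genes in NC and 72.1% ± 1.32 in siEIF1 libraries (SD, n = 3 each). The ratio of WWTR1 to YAP1 was 0.352, 0.426 and 0.412 in the NC and 0.391, 0.411 and 0.360 in the siEIF1 libraries. The mean log2 ratio differed by -0.031 between the groups, less than its SD of 0.15 over the NC libraries (two-sided exact permutation test, p = 0.7, where 3 libraries against 3 allow no p under 0.1).

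TEAD1 and TEAD4 encode TEAD factors, which bind DNA and carry YAP or TAZ. TEAD1 lies on chromosome 11 from 12674421 to 12944737 (forward strand, 13 exons), and its FPKM was 7.36, 8.40 and 8.27 in the NC and 7.58, 7.60 and 8.12 in the siEIF1 libraries. All siEIF1 values of TEAD1 lay inside the range of the NC values. Its log2 fold change was -0.024 (95% interval -0.14 to 0.096, edgeR adjusted p = 0.807), and without NC replicate 2 it was 0.013.

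TEAD4 lies on chromosome 12 from 2959330 to 3040676 (forward strand, 13 exons). Its FPKM was 5.46, 6.08 and 6.0 in the NC and 7.06, 6.20 and 6.41 in the siEIF1 libraries. Every siEIF1 library lay above every NC library, with siEIF1 replicate 1 the highest. The log2 fold change was 0.18 (95% interval 0.019 to 0.35, unadjusted p = 0.0317 from edgeR's quasi-likelihood test) and did not pass after adjustment over all genes (adjusted p = 0.112). A mean of 503 counts per library made TEAD4 the least counted of the 10 genes. Without overlap between the groups in CPM (counts scaled to library size) were 4 of the 10 genes (TEAD4, LATS2, CCN1 and ANKRD1), beside 37.1% of all genes tested.

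The ratio of TEAD4 to TEAD1 was 0.742, 0.724 and 0.726 in the NC and 0.931, 0.816 and 0.789 in the siEIF1 libraries. The siEIF1 ratios were all higher, and the mean log2 ratio differed by 0.21 (two-sided exact permutation test, p = 0.1, below which this design cannot go), or by 0.14 without siEIF1 replicate 1. Among all TEAD genes, TEAD1 took 39.1% ± 1.18 of the summed FPKM in NC and 36.0% ± 1.21 in siEIF1 libraries (SD, n = 3 each), with no overlap between the libraries (exact permutation test, p = 0.1). The share of TEAD4 was 28.5% ± 0.553 in NC and 30.4% ± 1.65 in siEIF1 libraries (SD, n = 3 each), and the groups overlapped (exact permutation test, p = 0.2). The sum itself was 20.5 ± 0.96 FPKM in the NC and 21.6 ± 0.66 FPKM in the siEIF1 group (SD, n = 3 each). TEAD2, at 1.72 FPKM in the NC group, had a log2 fold change of 0.24 (edgeR adjusted p = 0.123), and TEAD3, at 4.92 FPKM, of 0.11 (edgeR adjusted p = 0.276).

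LATS2 encodes a kinase that phosphorylates YAP and TAZ, and it is also a target of YAP, so that it acts as negative feedback. The gene lies on chromosome 13 from 20973036 to 21061586 (reverse strand, 8 exons). Its FPKM was 3.61, 3.84 and 3.86 in the NC and 4.39, 4.32 and 4.8 in the siEIF1 libraries. The 3 siEIF1 libraries lay above the 3 NC libraries, and siEIF1 replicate 3 was the highest. LATS2 rose by 0.27 in log2 fold change (standard error 0.061, 95% interval 0.14 to 0.41, edgeR adjusted p = 0.00637), a fold change of 1.21. Of all genes tested, 26.4% had a larger log2 fold change in size.

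LATS1, the paralogue of LATS2, had a log2 fold change of 0.088 (edgeR adjusted p = 0.396). LATS2 made up 61.4%, 65.1% and 62.8% of the summed FPKM of both kinases in the NC and 66.4%, 65.3% and 66.6% in the siEIF1 libraries. The groups did not overlap, by a narrow margin between NC replicate 2 and siEIF1 replicate 2 (two-sided exact permutation test, p = 0.1, again the lowest value possible).

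AJUBA encodes a LIM protein of cell junctions that binds LATS kinases and holds them back. The gene lies on chromosome 14 from 22971177 to 22982551 (reverse strand, 8 exons). Another protein-coding gene overlaps it on the same strand over 11082 bases, with a mean of 35 counts. Counts of AJUBA could thus be affected by how such overlaps were counted. The FPKM of AJUBA was 40.69, 43.22 and 45.33 in the NC and 42.06, 38.83 and 45.70 in the siEIF1 libraries. The siEIF1 group held both the lowest and the highest of the 6 values. The log2 fold change was -0.011 (95% interval -0.13 to 0.11, edgeR adjusted p = 0.922), and leaving out NC replicate 3 gave 0.017, while leaving out siEIF1 replicate 2 gave 0.030. Its relatives LIMD1 (log2 fold change -0.034) and WTIP (-0.037) did not pass either, and AJUBA made up 89.1% of the summed FPKM of the family in NC and 89.3% in siEIF1 libraries.

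**Figure D2:**
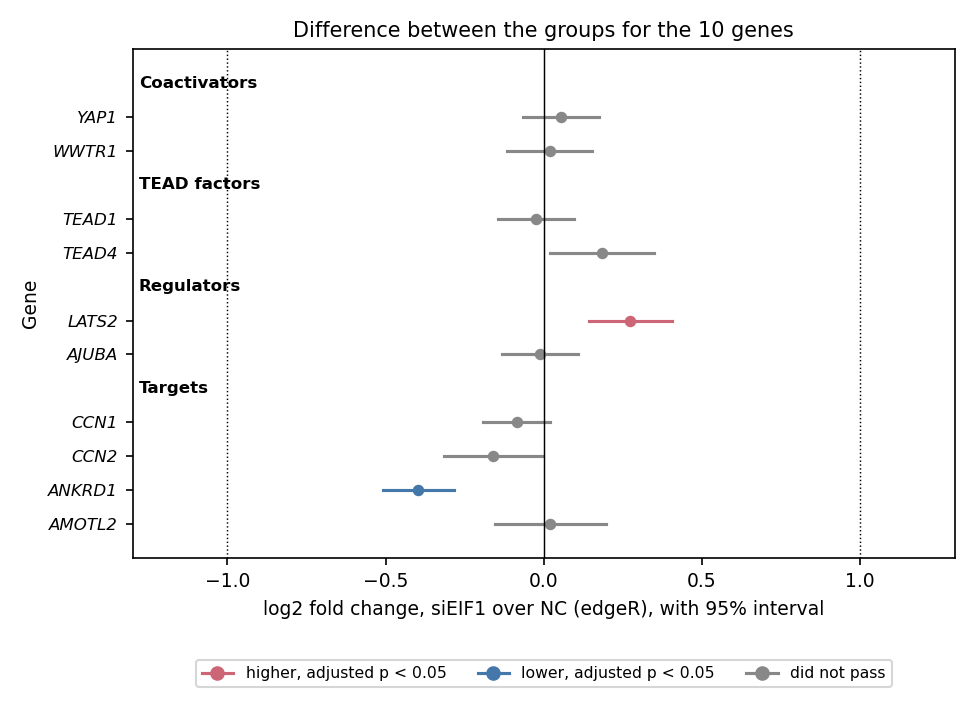
Log2 fold change of each of the 10 genes, siEIF1 over NC, from edgeR (points) with its 95% interval (lines), grouped by role. The dotted lines mark a fold change of 2 in either direction, and the points of ANKRD1 at -0.40 and LATS2 at 0.27 are the coloured ones.

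CCN1 (also known as CYR61) encodes a secreted matrix protein that binds integrins. The gene lies on chromosome 1 from 85580761 to 85584589 (forward strand, 5 exons). Its FPKM was 302.40, 287.52 and 290.55 in the NC and 278.47, 265.31 and 274.56 in the siEIF1 libraries. All 3 siEIF1 values were under the lowest NC value. The log2 fold change was small at -0.085 (95% interval -0.19 to 0.021, edgeR adjusted p = 0.256), although CCN1 was the most deeply counted of the 10 genes with a mean of 37094 counts per library.

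CCN2 (also known as CTGF) encodes a related secreted protein that promotes matrix deposition. It lies on chromosome 6 from 131948176 to 131951372 (reverse strand, 5 exons), and its promoter with 3 TEAD cores is printed above. Its FPKM was 81.87, 66.57 and 74.98 in the NC and 67.15, 58.78 and 71.52 in the siEIF1 libraries. The groups overlapped, since NC replicate 2 lay below siEIF1 replicates 1 and 3. The siEIF1 mean was 88.4% of the NC mean, with a log2 fold change of -0.16 (95% interval -0.32 to -0.0033, unadjusted p = 0.0460 and adjusted p = 0.145 from edgeR). With no filter on low counts, CCN2 had an adjusted p of 0.0330 (edgeR), while its log2 fold change ran from -0.23 without NC replicate 2 to -0.084 without NC replicate 1.

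The ratio of CCN1 to CCN2 was 3.69, 4.32 and 3.88 in the NC and 4.15, 4.51 and 3.84 in the siEIF1 libraries. The groups overlapped and the mean log2 ratio differed by 0.072 (two-sided exact permutation test, p = 0.6). Of the other CCN genes, CCN3 was at 28.2 FPKM in the NC group with a log2 fold change of 0.097 (edgeR adjusted p = 0.215). CCN5, which lacks the C-terminal domain of its relatives, rose from 0.203 to 0.373 FPKM (log2 fold change 0.87, edgeR adjusted p = 0.00905), a low level with a mean of 51.7 counts per library, and did not pass without siEIF1 replicate 2 (adjusted p = 0.0528), while limma on log2(FPKM + 1) gave 0.19.

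ANKRD1 encodes an ankyrin repeat protein that is found in the nucleus and at the sarcomere and is induced by stretch in muscle. The gene lies on chromosome 10 from 90912096 to 90921087 (reverse strand, 9 exons). Its promoter, with 2 TEAD cores and a match to the loose AP-1 pattern, is printed above. Its FPKM was 55.51, 58.26 and 60.25 in the NC and 44.38, 44.06 and 41.87 in the siEIF1 libraries. The gap between the lowest NC and the highest siEIF1 value was wider than the range within either group (SD 2.38 and 1.37 FPKM, n = 3 each). For ANKRD1, which fell, the log2 fold change was -0.40 (standard error 0.052, 95% interval -0.51 to -0.28, edgeR adjusted p = 1.54e-04), a fold change of 0.76. A larger log2 fold change in size was seen in 14.8% of all genes tested. Its relatives ANKRD23 and ANKRD2 did not pass, with log2 fold changes of -0.33 (edgeR adjusted p = 0.106) and 0.64 (edgeR adjusted p = 0.293, at a mean of 11.7 counts).

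AMOTL2 encodes an angiomotin-like protein that binds YAP at junctions and also activates LATS kinases, so it is a target with a negative role. The gene lies on chromosome 3 from 134355347 to 134375479 (reverse strand, 10 exons). Its FPKM was 22.31, 28.96 and 26.82 in the NC and 24.12, 26.92 and 27.12 in the siEIF1 libraries. All siEIF1 values lay inside the NC range, which was wide because of NC replicate 1. The log2 fold change was 0.021 (95% interval -0.15 to 0.20, edgeR adjusted p = 0.892), and it turned to -0.077 without NC replicate 1 and to -0.021 without siEIF1 replicate 2. A processed pseudogene, RPL39P5, lies within AMOTL2 on the same strand with a mean of 903 counts, so counts of AMOTL2 could be affected by how such overlaps were counted. RPL39P5 itself had a log2 fold change of -0.16 (edgeR adjusted p = 0.129).

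Among the angiomotins, AMOT rose from 1.39 to 1.82 FPKM (log2 fold change 0.41, edgeR adjusted p = 0.00797), but limma on log2(FPKM + 1) gave 0.24 and did not call it (adjusted p = 0.0551). AMOTL1 was at 6.29 FPKM in the NC group with a log2 fold change of 0.19 (edgeR adjusted p = 0.241). AMOTL2 made up 77.1% ± 1.81 of the family's FPKM in NC and 74.7% ± 2.22 in siEIF1 libraries (SD, n = 3 each), and these overlapped (two-sided exact permutation test, p = 0.3).

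**Figure D3:**
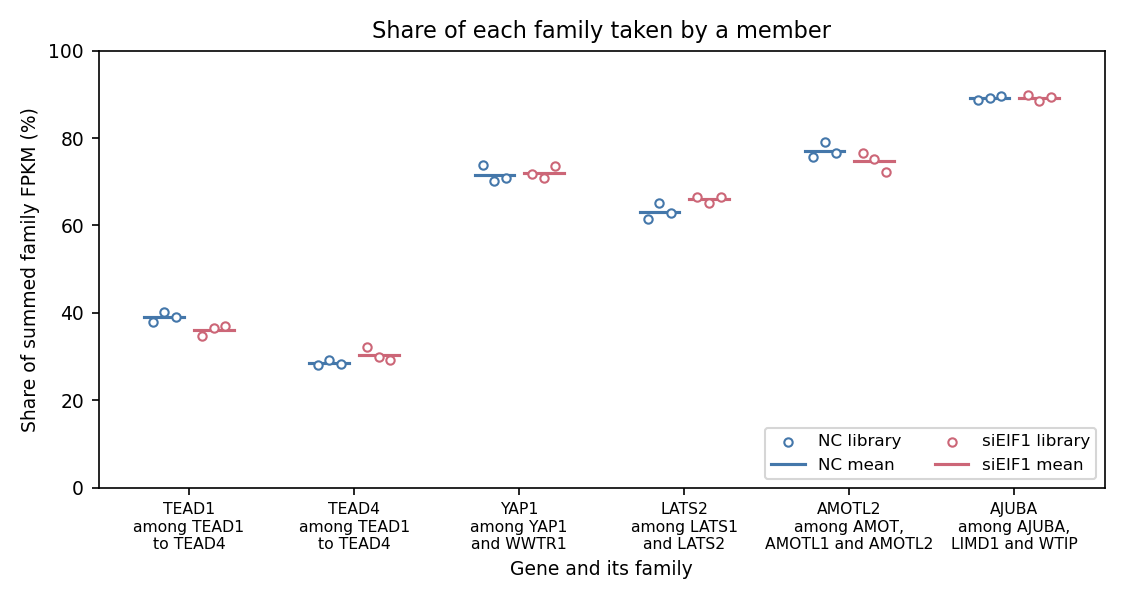
Share of the summed FPKM of a family taken by 1 of its genes, in percent, for each library (points) and group mean (lines), with NC in blue and siEIF1 in red. The share of TEAD1 among TEAD genes is lower and that of LATS2 among LATS genes higher in all siEIF1 libraries, and the other shares overlap.

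The members are few, so the other genes of a published pan-cancer YAP/TAZ target signature were read beside them. All 17 were tested, and 4 of them rose and 3 fell (adjusted p under 0.05, edgeR), beside 10.2% and 10.4% of all genes. Their median log2 fold change was 0.13, and 11 of the 17 had a positive value, as did 50.6% of all genes. None of the 17 passed with a fold change above 2 or below 0.5 in edgeR, and 11 had an unadjusted p under 0.05 (32.6% of all genes). CCDC80, a secreted matrix protein, rose from 50.4 ± 5.36 to 70.7 ± 3.97 FPKM (SD, n = 3 each), with a log2 fold change of 0.51 (edgeR adjusted p = 4.29e-04). MYOF, a membrane repair protein of the ferlin family, rose from 31.0 to 41.2 FPKM (log2 fold change 0.43, edgeR adjusted p = 0.00177).

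NT5E, the ectonucleotidase CD73, rose from 84.6 to 104 FPKM (log2 fold change 0.32, edgeR adjusted p = 0.0250), but its FPKM values overlapped between the groups. It did not pass in DESeq2 (adjusted p = 0.119), with limma on log2(FPKM + 1) (0.124) or without NC replicate 2 (0.127), NC replicate 3 (0.0961), siEIF1 replicate 1 (0.0565) or siEIF1 replicate 3 (0.0510). NUAK2, an AMPK-related kinase, rose from 4.19 to 5.02 FPKM (log2 fold change 0.28, edgeR adjusted p = 0.0202) and did not pass without NC replicate 1 (adjusted p = 0.0805) or siEIF1 replicate 2 (adjusted p = 0.0743), nor with limma on log2(FPKM + 1) (adjusted p = 0.0655).

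In the other direction, GADD45A, a stress-induced growth arrest gene, fell from 91.7 ± 1.72 to 59.0 ± 0.384 FPKM (SD, n = 3 each). Its log2 fold change of -0.62 (standard error 0.045, edgeR adjusted p = 1.22e-06) was the largest in size of the signature. F3, which encodes tissue factor, fell from 177 to 140 FPKM (log2 fold change -0.31, edgeR adjusted p = 8.47e-04). ASAP1, an ARF GTPase-activating protein, fell from 11.2 to 9.47 FPKM (log2 fold change -0.23, edgeR adjusted p = 0.00353). The signature genes thus moved in both directions, as did the 5 of the 10 genes that belong to the same signature, where LATS2 rose, ANKRD1 fell and CCN1, CCN2 and AMOTL2 did not pass. AXL, a receptor tyrosine kinase and among the most abundant of the signature at 158 FPKM in the NC group, had a log2 fold change of -0.017 (edgeR adjusted p = 0.853).

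**Figure D4:**
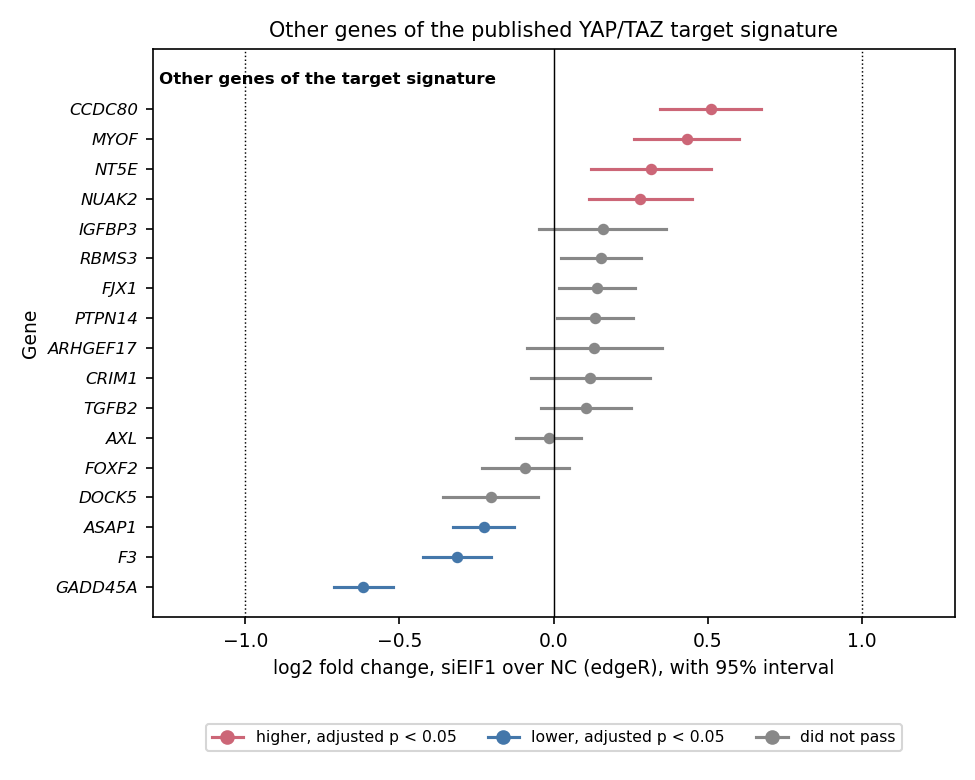
Log2 fold change, siEIF1 over NC, of the 17 other genes of the target signature (points) with 95% intervals (lines), ordered by size. Red marks the 4 genes that rose and blue the 3 that fell at an adjusted p under 0.05, from CCDC80 at 0.51 down to GADD45A at -0.62, all inside the dotted lines of a fold change of 2.

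The rest of the Hippo pathway was read by role. Of 37 tested genes of the kinase cascade, its upstream activators, the proteins that restrain it, junctional YAP or TAZ binders and other TEAD and VGLL proteins, 4 rose and 3 fell, beside 10.2% and 10.4% of all genes, and their median log2 fold change was 0.022. PTPN14 belongs to these genes and to the signature. In the kinase cascade, 0 of 6 rose and 1 fell. This was STK4 (MST1), which went from 5.36 to 4.40 FPKM (log2 fold change -0.27, edgeR adjusted p = 0.0124) and did not pass without NC replicate 1 (adjusted p = 0.0577) or siEIF1 replicate 2 (adjusted p = 0.0540), nor with limma on log2(FPKM + 1) (adjusted p = 0.0547). The scaffold SAV1 (log2 fold change 0.022) and the adaptors MOB1A (-0.015) and MOB1B (-0.0013) did not pass. STK3 (MST2) had a log2 fold change of -0.28 (edgeR adjusted p = 0.0858).

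Of 13 tested upstream activators, 2 rose and 2 fell, beside 10.2% and 10.4% of all genes. MAP4K4, a kinase that can act on LATS beside the MST kinases, rose from 9.12 ± 0.236 to 12.2 ± 1.29 FPKM (SD, n = 3 each; log2 fold change 0.43, edgeR adjusted p = 3.30e-04). FRMD6, a FERM domain protein, rose from 11.1 to 12.8 FPKM (log2 fold change 0.22, edgeR adjusted p = 0.00612) and did not pass with limma on log2(FPKM + 1) (adjusted p = 0.0505). TAOK3 fell from 1.47 to 1.15 FPKM (log2 fold change -0.33, edgeR adjusted p = 0.00747) but did not pass with limma on log2(FPKM + 0.1) (adjusted p = 0.0509), and limma on log2(FPKM + 1) gave -0.20. RASSF1, which binds MST kinases, also fell, from 4.02 to 3.30 FPKM (log2 fold change -0.26, edgeR adjusted p = 0.0307). RASSF1 did not pass without NC replicate 1 (adjusted p = 0.0846), NC replicate 2 (0.102), siEIF1 replicate 2 (0.104) or siEIF1 replicate 3 (0.0879). NF2 (Merlin), a membrane-linked activator, had a log2 fold change of 0.0082.

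Among the 10 proteins that restrain the cascade, 0 passed in edgeR's test (20.6% of all genes). Of these 10, 1 had an unadjusted p under 0.05 (32.6% of all genes), STRIP2 (log2 fold change -0.17, edgeR adjusted p = 0.0629). Of the 3 tested junctional binders, AMOT rose, as given above. Of the 5 tested TEAD and VGLL genes, 1 rose (10.2% of all genes), VGLL4, whose protein competes with YAP for TEAD. VGLL4 went from 6.88 ± 0.0656 to 8.43 ± 0.482 FPKM (SD, n = 3 each; log2 fold change 0.31, edgeR adjusted p = 0.00177). Leaving out siEIF1 replicate 1 raised the number of pathway genes that rose to 8, beside 1652 of all 16982 genes tested in that setting. Leaving out NC replicate 1 or siEIF1 replicate 2 left 1 that fell, beside 1211 of 17067 and 1124 of 16941 genes. DCHS1 was not tested, with a mean count of 3.33, and VGLL1 was not found by symbol.

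As a description, the genes whose log2 CPM most resembled those of YAP1 over the 6 libraries were CSNK1A1 (Pearson r = 0.981), WDFY3-AS2 (r = 0.980) and RPL36A-HNRNPH2 (r = 0.979). For CCN2 they were PSMD2 (r = 0.995), YKT6 (r = 0.993) and NBPF20 (r = 0.992). These were the highest of 13382 genes compared, of which 70 had an r over 0.9 with YAP1 and 330 with CCN2. The 6 points share the group difference and the libraries.

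**Figure D5:**
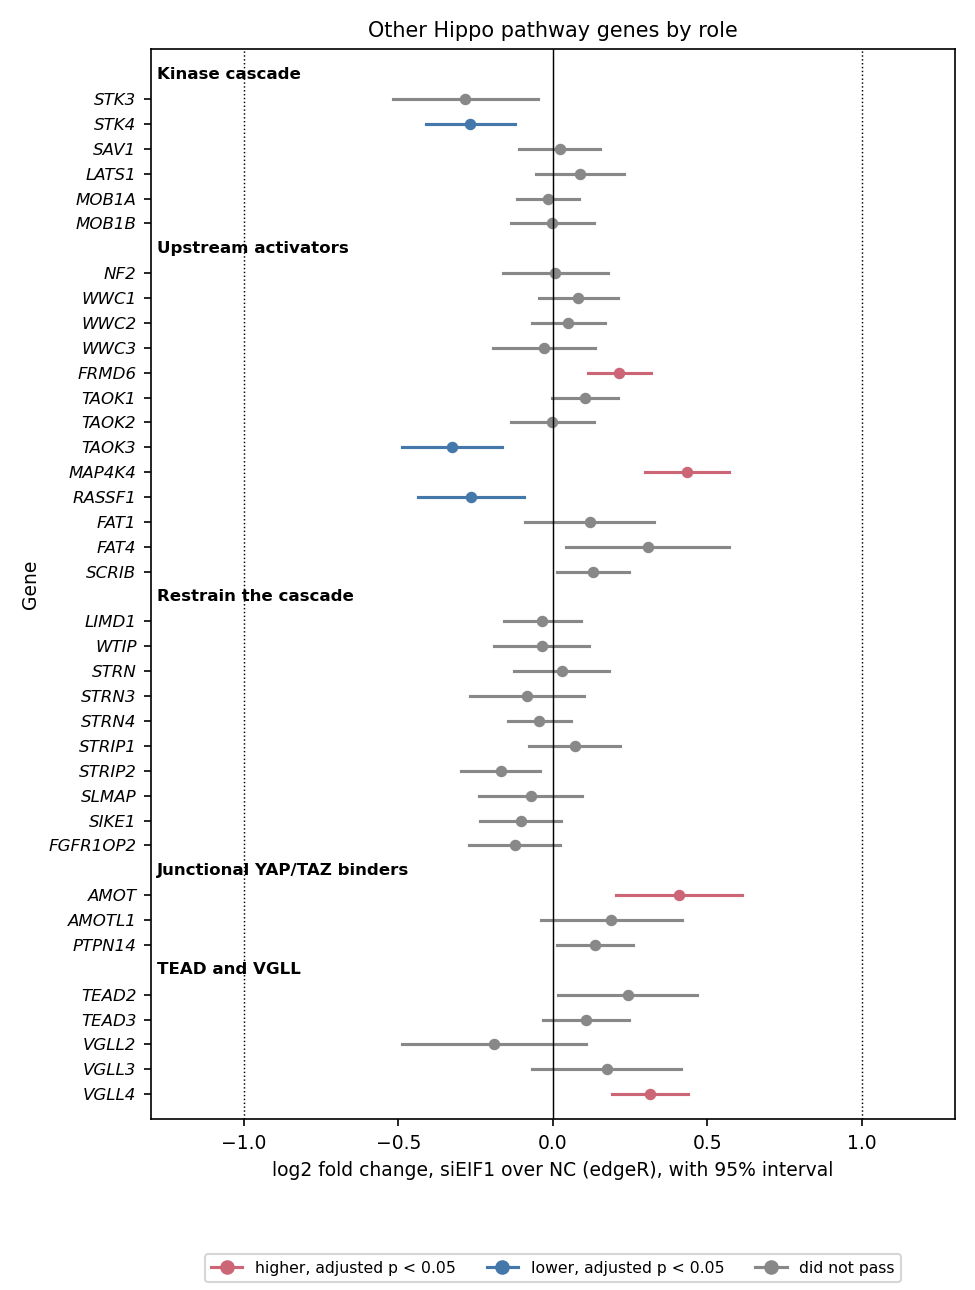
Log2 fold change, siEIF1 over NC, of 37 other Hippo pathway genes by role (points) with 95% intervals (lines). The coloured points are the 4 genes that rose (FRMD6, MAP4K4, AMOT and VGLL4) and the 3 that fell (STK4, TAOK3 and RASSF1), and the proteins that restrain the cascade are all grey.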

How the data were processed

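Group and replicate number of each library were taken from its title. Per the labels and the paper's methods, the authors trimmed reads with FASTX-Toolkit 0.0.13, aligned them to GRCh38 with HISAT2 and counted uniquely mapped reads, and they deposited raw counts per gene for 30618 genes. The FPKM values that the authors deposited for 30275 genes are fragments scaled to transcript length and library size, rounded. The lengths used are not given, so FPKM levels, ratios and shares between genes are uncertain. The libraries were strand-specific, but the counting program, its strand setting and the annotation release are not given in the sources used here, so counts of overlapping genes are uncertain. All columns were matched to a library.

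Genes with low counts were removed with filterByExpr, and the groups were compared by the quasi-likelihood test of edgeR 4.0.16 in R 4.3.3, with TMM factors and p-values adjusted by Benjamini-Hochberg over the 16749 genes left. The standard error was derived from the F statistic. All 10 members passed the filter. Alternatives were DESeq2 1.42.0, limma 3.58.1 on log2(FPKM + 1) and log2(FPKM + 0.1), other normalizations and filters, the replicate number as a block, and leaving out each library. Ratios were compared by exact permutation tests (scipy 1.17.1). The edgeR step was tested on simulated counts. Positions came from GENCODE release 44 and promoters from RefSeq.

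The members and gene lists were chosen with earlier results of these data known, and the family shares were added after the values were seen. Named are all members, EIF1, up to 4 genes in each direction with the smallest p-values of each list, and for YAP1 and CCN2 the 3 genes with the highest correlation at a mean count of 50 or more. Other genes are named as relatives or markers, after their values were seen. Protein sequences were not used here, and some items of the lists are not reported here by name.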

Additional observations from a re-analysis of the deposited data

How the results depend on the processing

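LATS2 and ANKRD1 kept their direction and an adjusted p under 0.05 in all 14 alternatives, with log2 fold changes from 0.21 to 0.29 for LATS2 (highest adjusted p 0.0432) and from -0.43 to -0.36 for ANKRD1 (highest adjusted p 0.00201). YAP1, WWTR1, TEAD1, TEAD4, AJUBA, CCN1 and AMOTL2 passed in none of them. The members that were lower numbered 2, with CCN2 added, with no filter on low counts and also with the replicate block (edgeR adjusted p for CCN2 0.0330 and 0.0195). In these settings 1865 of 30618 and 2128 of 16749 genes were lower. The cause of the added call was not tested.

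The numbers pair the libraries only as a hint from the data, since the correlations of same-numbered libraries' deviations were 0.150, 0.0946 and 0.128, each the highest of that library with the other group. With the replicate block 4277 genes had an adjusted p under 0.05 in place of 3446. In that setting 5 pathway genes were lower in place of 3, beside 2128 of all genes in place of 1744. With limma on log2(FPKM + 1), 2 targets and 2 pathway genes were higher, beside 1067 of all 16748 genes. With log2(FPKM + 0.1), 2 targets were higher and 1 pathway gene was lower, beside 1071 higher and 1482 lower of all 16748 genes. With no filter, 7 pathway genes were higher, beside 1747 of all 30618 genes. With each library left out, 4 to 8 pathway genes were higher and 1 to 4 lower. Over all genes, 1118 to 1709 were higher and 1124 to 1763 lower in these settings.

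The sign turned for members with values near 0. WWTR1 had -0.00016 and -7.4e-05 with limma on log2(FPKM + 1) and log2(FPKM + 0.1), and ran from -0.036 to 0.053 with each library left out. TEAD1 ran from -0.080 to 0.013, AJUBA from -0.056 to 0.030 and AMOTL2 from -0.077 to 0.11. The group differences of the ratios and shares moved by less than 1 SD (pooled within the groups) in every alternative run on them. Over all genes, 2242 to 3472 had an adjusted p under 0.05 with each library left out (2242 without siEIF1 replicate 2), and those past the fold limit numbered 20 and 164 in place of 286 with limma on log2(FPKM + 1) and log2(FPKM + 0.1).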

Other observations

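Of the retinal pigment epithelium markers, 7 of the 8 found were tested, and 3 rose in edgeR's test, beside 10.2% of all genes. These were KRT18 (log2 fold change 0.25, adjusted p = 0.00442), KRT8 (0.24, adjusted p = 0.00950), both keratins of simple epithelia, and RLBP1 (1.55, adjusted p = 0.00102), a retinoid-binding protein that had a mean of only 30.7 counts per library. KRT8 did not pass without NC replicate 1 (adjusted p = 0.0505) or siEIF1 replicate 2 (adjusted p = 0.0528). MITF, OTX2 and PMEL did not pass, nor did BEST1, a chloride channel, which had a log2 fold change of -0.32 (adjusted p = 0.106). Reads of genes that overlap the markers were not assessed. On the log2(FPKM + 1) scale of limma, RLBP1 had a value of 0.44. The summed FPKM of the markers was 521 to 540 in the NC and 563 to 610 in the siEIF1 libraries, most of it from KRT18 and KRT8. Among the proliferation markers, the log2 fold change was -1.66 for CDK1, -1.60 for MKI67, -1.54 for TOP2A, -1.01 for CCNB1, -0.87 for MCM2 and -0.28 for PCNA, which held most of their summed FPKM (67.0 FPKM in the NC group). Limma on log2(FPKM + 1) gave -0.48 for MKI67 and -1.01 for TOP2A.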
